A study of Mus musculus with 69 samples.

Results

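The comparison concerns aortic vascular smooth muscle cells (VSMC) of the mouse without an added stressor, with the epidermal growth factor receptor gene Egfr deleted (KO VSMC) or not (WT VSMC). It takes 8 of the 69 RNA-seq libraries of the series, namely WT VSMC sets 1 to 4 and KO VSMC sets 5 to 8 in Control medium. A set is the cells of 1 animal at 1 passage, so the sets are biologically independent and WT and KO share no animal. The passage of each set is not given. Differences of passage or preparation between WT and KO sets thus cannot be told apart from genotype. The other libraries are the same VSMC sets under stressors and endothelial cells. KO animals came from crossing SM22-Cre mice, in which the Cre recombinase is driven by the SM22 promoter of smooth muscle, with Egfr flox/flox mice, all on C57BL/6. The alleles of the WT animals are not given in the sources used here. Genotype was read by PCR on ear punches, which does not measure recombination in the aorta. All animals were male. Cells were released from thoracic and abdominal aorta with collagenase, grown in medium with 10% fetal calf serum and 10 ng/ml bFGF for up to 7 passages, kept without serum and supplements for 24 h, and then incubated in Control medium without an agent. KO set 5 kept part of its Egfr RNA, so the comparison was made with it (4 against 4) and without it (4 against 3).

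EGFR is a receptor tyrosine kinase of the ErbB family. It binds EGF, TGF-alpha, HB-EGF and related ligands, pairs with itself or with ERBB2, and passes the signal to RAS and ERK, to PI3K and AKT and to other kinases, which drive growth, migration and survival. In vascular smooth muscle the receptor is also transactivated by G protein-coupled receptors such as the angiotensin II receptor, through shedding of HB-EGF from the cell surface, and it is linked to vessel tone, matrix formation and the shift of the cells away from the contractile state.

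The 8 libraries held 23238979 to 37801299 counted fragments, with 20062 to 23973 genes detected. Levels are given as FPM (fragments per 1000000 counted fragments, after library size normalisation), and log2FC is KO minus WT. Pearson correlations of log2 FPM over 16089 genes, which are not independent replicates, placed KO set 5 nearer to WT VSMC than to the other KO libraries, with r of 0.950 to 0.979 against WT sets and 0.921 to 0.937 against KO sets 6 to 8. Smooth muscle identity was checked by 10 defining markers. Their summed level was 1230 to 3060 FPM in WT, 4670 FPM in KO set 5 and 2050 to 3440 FPM in KO sets 6 to 8, and Acta2, Cald1 and Tpm2 were at 154 FPM or more in every library. Myh11, the smooth muscle myosin heavy chain, was at most 9.64 FPM in all libraries other than KO set 5. Markers of adventitial fibroblasts summed to 8640 to 15400 FPM in WT VSMC and to 2070 to 6870 FPM in KO VSMC. In bulk RNA, fewer cells of a type and less RNA per cell cannot be told apart.

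Egfr RNA was lower in every KO library than in every WT library. Egfr (ENSMUSG00000020122, chr11:16702198-16868158, plus strand, GRCm39) amounted to 267, 308, 411 and 476 FPM in WT sets 1 to 4 and to 38.2, 0.648, 0.505 and 1.70 FPM in KO sets 5 to 8. KO set 5 kept 10.5% of the WT mean, and KO sets 6 to 8 kept 0.138 to 0.464%. The mean log2(FPM + 0.1) differed by -7.24 with all 8 libraries, with a two-sided exact permutation p of 0.0286, the smallest that 70 splits can give. In the edgeR fit over all genes the log2FC was -5.15 ± 1.37 (SE, n = 4 and 4) with an FDR of 0.320. Set 5 was set aside for its own Egfr level, so the values without it, -8.58 for the mean difference and -8.64 for the log2FC, are a description with no test. Set 5 kept the same intermediate position under the stressors in which it was sequenced, at 32.6 and 34.3 FPM, while KO sets 6 to 8 ranged from 1.03 to 1.93 FPM there.

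Eldr, a long non-coding RNA gene that overlaps Egfr on the opposite strand, was higher in all KO libraries. It is annotated at chr11:16850489-16901299 on the minus strand, and none of its exonic bases (0%) are shared with exons of another gene. Eldr amounted to 0.690, 0.815, 1.25 and 0.758 FPM in WT sets 1 to 4 and to 5.32, 4.05, 3.51 and 4.35 FPM in KO sets 5 to 8. The groups did not overlap, and set 5, which kept most Egfr RNA among the KO libraries, had the highest value. The log2FC was 2.28 ± 0.31 (edgeR FDR 0.134) with all 8 libraries and 2.16 ± 0.33 (FDR 0.0266) without set 5. The strand setting of the counting is not stated, so reads of unspliced Egfr RNA over Eldr exons cannot be told apart from Eldr reads. Among the 35 tested genes within 5 Mb of Egfr the median log2FC was 0.03 with all libraries and 0.00 without set 5, against 0.00 and -0.01 for all genes tested. Of the 35, 18 had a positive and 17 a negative log2FC with all libraries. None passed the test with set 5 (0.00622% of all genes did), and 2 passed without it (2.11% of all genes did), Eldr and Grb10. Sec61g and Dnaaf10 did not pass but had 4 KO values above all 4 WT values, as 2.61% of all genes did. Sec61g was at 45.6 to 68.7 FPM in WT and 70.6 to 203 FPM in KO (without set 5, edgeR FDR 0.096, DESeq2 FDR 0.0224). Dnaaf10 was at 12.3 to 13.3 and 15.7 to 16.7 FPM (edgeR FDR without set 5 0.213). Grb10 encodes an adaptor that damps insulin and growth factor receptor signals, and its log2FC without set 5 was -2.40 (FDR 0.0256). Eldr, Sec61g and Dnaaf10 were named after their values were seen.

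**Figure D1:**
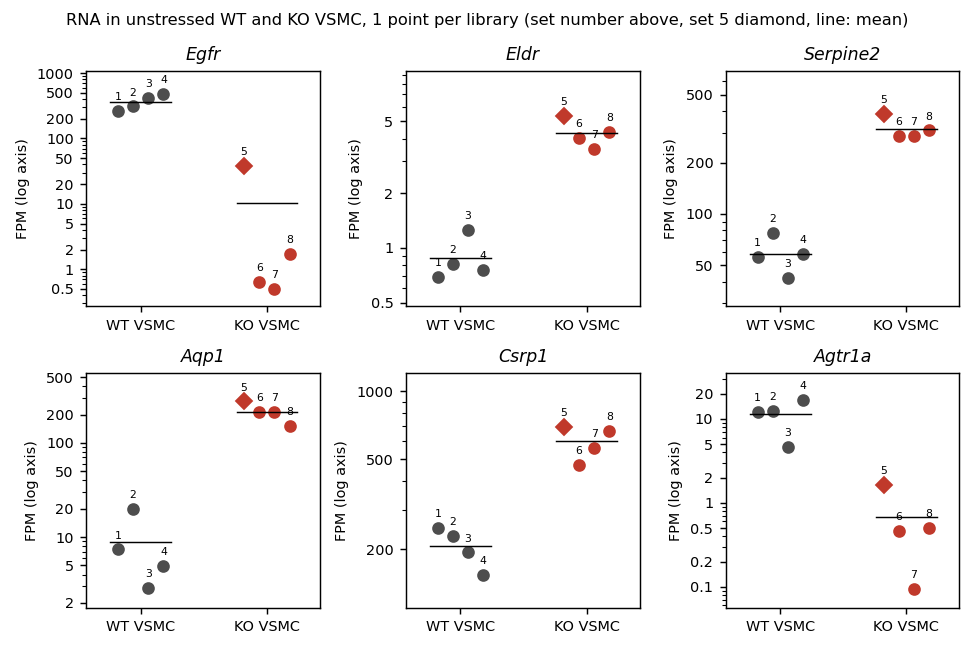
RNA levels in FPM (log axis) of 6 genes in the 4 WT and 4 KO libraries, 1 point per library with its set number, set 5 as a diamond and a line at each group mean. Egfr is at 267 to 476 FPM in WT, 38.2 FPM in KO set 5 and at most 1.70 FPM in sets 6 to 8, while Serpine2, Aqp1, Csrp1 and Eldr are higher in all 4 KO libraries and Agtr1a is lower in all 4.

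A differentially expressed gene (DEG) had to reach an FDR under 0.05 in both edgeR and DESeq2, an absolute log2FC of at least 0.64 and a mean of at least 3 FPM in 1 group, and to be protein-coding or lncRNA. With all 8 libraries 1 of 16089 genes was a DEG (0.00622%), Serpine2. At an unadjusted p under 0.05 edgeR gave 1958 genes (12.2%), and DESeq2 called 331 (2.06%) at an FDR under 0.05 with no other criterion, which is how its calls are counted for the gene lists. Without KO set 5, 348 of 16492 genes were DEG (2.11%), of which 116 were higher (0.703%) and 232 lower (1.41%) in KO VSMC. Egfr, by whose level set 5 was set aside, is counted among the 232. By type, 341 were protein-coding and 7 lncRNA. At an unadjusted p under 0.05 edgeR then gave 4241 genes (25.7%), and DESeq2 called 2083 (12.6%), the shares beside which the counts of list members without set 5 stand. With all 8 libraries 346 of the 348 genes were tested, and the 345 other than Serpine2 had an edgeR FDR of 0.134 to 0.864. Where a single log2FC in Control is given for a gene with no fit named, it is the one without set 5. Leaving out any of 7 other libraries from the full comparison gave 0 to 3 DEG, so the count turned on set 5.

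The 348 genes were unevenly placed in set 5 itself. The set 5 value lay inside the WT range for 190 of them (54.6%), beyond the WT range on the side of KO sets 6 to 8 for 136 (39.1%), and beyond it on the opposite side for 22 (6.32%). Over all 3428 genes whose KO sets 6 to 8 did not overlap the WT libraries, called or not, set 5 was on the same side in 864 (25.2%). The call without set 5 also rested on few libraries. It fell to 17 DEG when KO set 7 was left out as well, to 46 without WT set 4, 58 without WT set 2 and 111 without WT set 1, and moved to 375, 447 and 499 without KO set 6, KO set 8 and WT set 3. Without KO set 8 the direction of the balance changed, to 245 higher and 202 lower. In all 7 of these fits 15 genes were DEG, and 31 were DEG in at least 6.

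**Figure D2:**
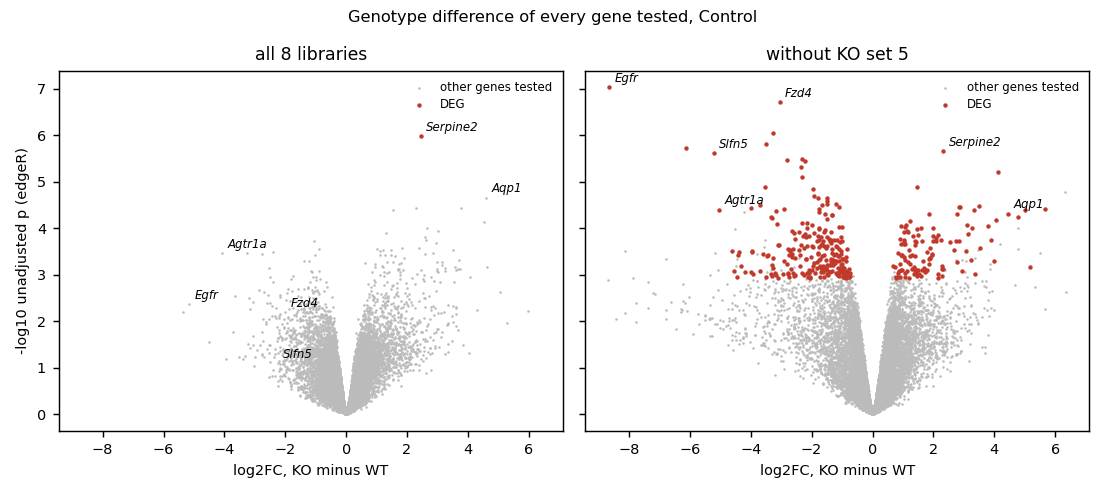
Each point is 1 gene tested, with log2FC (KO minus WT) on the x axis and -log10 of the unadjusted edgeR p on the y axis, DEG in red. With all 8 libraries (left) Serpine2 is the only DEG, and without KO set 5 (right) 348 genes are, 232 of them to the left of 0.

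Serpine2, which encodes the secreted serine protease inhibitor protease nexin-1, was the gene that passed with every KO library included. It is located at chr1:79763323-79839144 on the minus strand. Serpine2 RNA amounted to 55.8, 77.4, 41.8 and 57.8 FPM in WT sets 1 to 4 and to 386, 286, 287 and 309 FPM in KO sets 5 to 8. Every KO value was far above every WT value, and set 5 had the highest. The log2FC was 2.44 ± 0.22 (edgeR FDR 0.0172, DESeq2 FDR 4.16e-21) and 2.33 ± 0.21 without set 5 (edgeR FDR 0.00578). The call was lost without WT set 1, WT set 3, WT set 4, KO set 6 or KO set 7, with edgeR FDR of 0.212, 0.0587, 0.179, 0.0634 and 0.0807.

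Serpine2 included, 840 genes (5.22%) had 4 KO values on one side of all 4 WT values, 420 above (2.61%) and 420 below (2.61%). Among those that were also DEG without set 5, 70 were higher and 66 lower. Aqp1, the water channel aquaporin-1, amounted to 7.39, 19.8, 2.90 and 4.99 FPM in WT and to 275, 211, 215 and 151 FPM in KO sets 5 to 8. The lowest KO value was above the highest WT value, and the log2FC was 4.60 ± 0.59 (edgeR FDR 0.134) with all libraries and 4.45 ± 0.60 (FDR 0.0192) without set 5. Scx, the tendon transcription factor scleraxis, amounted to 2.56, 2.93, 1.10 and 2.27 FPM in WT and to 53.2, 22.6, 32.8 and 11 FPM in KO, again with set 5 highest. Its log2FC was 3.76 (FDR 0.134) and 3.32 without set 5 (FDR 0.0186).

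In many other genes with 4 higher KO values, set 5 was the lowest of the 4. Entpd1, the ectonucleotidase CD39, amounted to 1.67 to 9.32 FPM in WT, 25.7 FPM in KO set 5 and 44.9 to 121 FPM in KO sets 6 to 8 (log2FC 3.51, FDR 0.199, and 3.79, FDR 0.0245, without set 5). Itga3, the integrin alpha 3 chain of laminin receptors, amounted to 3.02 to 17.5, 50.9 and 72.5 to 94.0 FPM in the same order (3.0, FDR 0.199, and 3.14, FDR 0.0262). Frmd4b, Podxl, Slc25a34, Pipox, Pik3r6 and Upk3b had the same order, with log2FC without set 5 of 3.10 to 5.00. For Cbr2 and Cnksr1 set 5 was within the range of sets 6 to 8 (4.77 and 3.22).

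Agtr1a, the type 1A angiotensin II receptor, was among the genes with the largest drop. It amounted to 12.2, 12.4, 4.65 and 17 FPM in WT and to 1.65, 0.459, 0.0948 and 0.504 FPM in KO sets 5 to 8. All KO values were below all WT values, with set 5 the highest of the KO libraries. The log2FC was -4.08 (edgeR FDR 0.199) with all libraries and -5.04 (FDR 0.0186) without set 5. Adora2a, an adenosine receptor, amounted to 10.1 to 29.6 FPM in WT, 4.95 FPM in KO set 5 and 1.19 to 2.52 FPM in KO sets 6 to 8 (log2FC -2.77, FDR 0.199, and -3.32, FDR 0.0206, without set 5). Fap, the fibroblast activation protein, amounted to 9.54 to 28.6, 7.03 and 0.945 to 3.62 FPM (-2.49, FDR 0.317, and -3.26, FDR 0.0359). Foxp2, Ms4a4d, Tnfsf13b, Spon1, Slc44a3 and Zfp783 had the same order, with log2FC without set 5 of -3.71 to -2.71.

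The 15 genes that were DEG in each of the 7 fits without set 5 and 1 further library included Egfr, by whose level set 5 was set aside, Serpine2 and 12 other genes that were lower in KO VSMC. Those named were singled out after their values were seen. Fzd4, a Frizzled receptor for Wnt ligands and norrin, amounted to 120, 115, 125 and 156 FPM in WT and to 82.2, 13.1, 19.2 and 14.4 FPM in KO sets 5 to 8, so that set 5 lay below WT and well above the other KO libraries (log2FC -2.00, FDR 0.330, and -3.05 ± 0.21, FDR 0.00161, without set 5). Sp100, a component of nuclear bodies, amounted to 33.2 to 50.4 FPM in WT, 24.4 FPM in KO set 5 and 6.97 to 10.6 FPM in KO sets 6 to 8 (-2.30, FDR 0.00586).

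In several of these genes KO set 5 was within or just above the WT range. Adam12, a membrane protease that can shed ErbB ligands, amounted to 37.4, 38.5, 29.4 and 37.0 FPM in WT, 39.1 FPM in KO set 5 and 2.54, 4.96 and 3.67 FPM in KO sets 6 to 8 (-1.50, FDR 0.438, and -3.26 ± 0.26, FDR 0.00489, without set 5). Kcne4, an accessory subunit of potassium channels, was at 119 to 188, 164 and 8.66 to 17.5 FPM (-3.49, FDR 0.00578). Slfn5, an interferon-inducible Schlafen gene, was at 59.9 to 194, 87.8 and 2.06 to 4.11 FPM (-5.22, FDR 0.00578), and 19.8% of its exonic bases are shared with other genes. AI606473 and the transcription factor gene Ebf3 were likewise within the WT range in set 5. For Naalad2, Emilin2, Irak3, Trim25 and Unc93b1, set 5 was below the WT range by a smaller margin than sets 6 to 8. Irak3 restrains Toll-like receptor signalling, Trim25 activates the RNA sensor RIG-I, and Unc93b1 carries Toll-like receptors to endosomes. Their log2FC without set 5 were -2.23, -1.49 and -1.77.

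Erbb2 and Erbb3 did not pass the test in either fit. Erbb2, the preferred partner of EGFR, amounted to 29.1 to 48.7 FPM in WT and 33.9 to 45.4 FPM in KO VSMC, and the ranges overlapped (log2FC -0.06, edgeR FDR 0.911, with all libraries). Erbb3 was at 0.157 to 3.41 FPM in WT, 7.46 FPM in KO set 5 and 0.221 to 1.05 FPM in sets 6 to 8 (FDR 0.984, and 0.258 without set 5), and Erbb4 was at or under 0.207 FPM throughout and was not tested. Of 12 tested ErbB ligands and genes of ligand shedding 0 were DEG in either fit, and Adam12, which was a DEG without set 5, is not on this list. At an unadjusted edgeR p under 0.05 there were 3 with all libraries and 5 without set 5, DESeq2 called 1 and 3, and the median log2FC was 0.00 and 0.04.

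Individual ligands had higher values in KO sets 6 to 8 without passing. Tgfa, which encodes the EGFR ligand TGF-alpha, amounted to 1.96, 11.2, 3.53 and 3.48 FPM in WT and to 13.2, 56.5, 25.6 and 20.6 FPM in KO sets 5 to 8. All KO values were above all WT values, with an edgeR FDR of 0.294 (log2FC 2.53) with all libraries and 0.0522 (2.77) without set 5. Hbegf, encoding HB-EGF, was at 6.20 to 16 FPM in WT and at 11.7, 58.3, 24.5 and 12.8 FPM in KO (log2FC without set 5 1.58, FDR 0.107). Nrg1, encoding a neuregulin that binds ERBB3 and ERBB4, was at 3.51 to 14.1 FPM in WT and at 9.97, 21.9, 23.1 and 23.1 FPM in KO (1.29, FDR 0.0984). Set 5 was within the WT range for both, and set 8 for Hbegf. The sheddase genes Adam10 and Adam17 had log2FC without set 5 of -0.41 and -0.48, and neither passed.

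Downstream of the receptor, 0 of 14 adaptors and attenuators and 0 of 21 ERK feedback and output genes were DEG in either fit. With set 5 and without it, the adaptors had 0 and 5 genes at an unadjusted edgeR p under 0.05 (12.2% and 25.7% of all genes), DESeq2 called 0 and 2 (2.06% and 12.6% of all genes), and the median log2FC was -0.22 and -0.28. The ERK genes had 5 and 8 at an unadjusted p under 0.05, DESeq2 called 1 and 5, and the medians were 0.42 and 0.61. The ERK phosphatase gene Dusp4 amounted to 3.75 to 15.7 FPM in WT, 9.11 FPM in KO set 5 and 16.3 to 65.3 FPM in KO sets 6 to 8 (log2FC without set 5 1.79, FDR 0.100), while Spry1, an inhibitor of receptor tyrosine kinase signalling, amounted to 42.7 to 70.9, 44.1 and 15.7 to 36.9 FPM (-1.22, FDR 0.0788). Dusp5, another phosphatase gene of the list, was at 2.89 to 6.4 FPM in WT and 8.48 to 15.4 FPM in KO, without overlap. It did not pass (edgeR FDR 0.32, and 0.081 without set 5), while its DESeq2 FDR was 0.0381 and 0.00785. Of the 21 ERK genes 15 had a positive and 6 a negative log2FC with all libraries, and 14 and 7 without set 5. Among 19 immediate early genes Klf10, a Krüppel-like factor induced by TGF-beta and growth factors, was a DEG without set 5. It amounted to 17.3 to 29.3 FPM in WT, 17.1 FPM in KO set 5 and 9.70 to 11 FPM in KO sets 6 to 8 (-1.12, FDR 0.0469).

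Other growth factor receptors were lower where they passed. Without set 5, 0 of 23 tested receptors were higher and 4 were lower, with a median log2FC of -0.53, and with all libraries 0 passed, 8 had an unadjusted edgeR p under 0.05 and DESeq2 called 2. Pdgfra, the platelet-derived growth factor receptor alpha, amounted to 300, 626, 657 and 828 FPM in WT and to 403, 117, 123 and 122 FPM in KO sets 5 to 8, so set 5 was within the WT range and the other 3 KO libraries were alike (log2FC -1.66, FDR 0.339, and -2.32, FDR 0.0242, without set 5). Ddr2, a collagen receptor kinase, amounted to 313 to 467, 385 and 131 to 182 FPM (-1.37, FDR 0.0256). The ephrin receptors Epha3 and Ephb2 had log2FC of -4.41 and -2.39. Epha3 was at 123, 159, 23.9 and 233 FPM in WT and at 72.7, 3.83, 4.42 and 11 FPM in KO. Pdgfrb, the receptor typical of mural cells, was at 511 to 716 FPM in WT and 347 to 585 FPM in KO, with an FDR of 0.520 and, without set 5, 0.249. Pdgfra is also on the adventitial fibroblast list, whose summed level was 2070 to 3930 FPM in KO sets 6 to 8 and 6870 FPM in KO set 5, below the WT range. Its part in the receptor result was not tested.

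The list of angiotensin, adrenergic and endothelin signalling held 3 DEG among 31 tested genes without set 5, the receptor genes Agtr1a and Ednra and the enzyme gene Ptgis. With all libraries 0 passed, 7 had an unadjusted edgeR p under 0.05 and DESeq2 called 4. Ednra, the endothelin A receptor that mediates constriction, amounted to 22.2, 26.0, 8.78 and 32.9 FPM in WT and to 31.2, 2.73, 2.34 and 4.77 FPM in KO sets 5 to 8. Set 5 was within the WT range and the other KO libraries were below it (log2FC -1.13, FDR 0.545, and -2.79, FDR 0.0308, without set 5). Ptgis, which makes the vasodilator prostacyclin, amounted to 145 to 265 FPM in WT, 239 FPM in KO set 5 and 542 to 700 FPM in KO sets 6 to 8 (1.58, FDR 0.0245). Rgs5, a regulator of G protein signalling abundant in mural cells, varied from 0.862 to 30.3 FPM in WT and from 35.8 to 436 FPM in KO, and did not pass (log2FC 3.51, FDR 0.360, with all libraries). Of 25 calcium and potassium channel genes 0 were DEG in either fit, with 3 and 6 at an unadjusted edgeR p under 0.05, 0 and 4 called by DESeq2 and medians of -0.10 and -0.28.

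KO set 5 stood apart from the other 7 libraries in several contractile genes. Of 24 tested contractile genes 0 were DEG with all libraries, 13 had an unadjusted edgeR p under 0.05, DESeq2 called 4 and the median log2FC was 0.79. Without set 5 the median was 0.39, with 3 higher DEG and 1 lower. Myh11 amounted to 5.21, 6.75, 2.87 and 9.64 FPM in WT, to 231 FPM in KO set 5 and to 5.32, 9.48 and 2.93 FPM in KO sets 6 to 8. Its log2FC was 3.35 with set 5 and -0.05 without it (edgeR FDR 0.401 and 0.959). Actg2, the smooth muscle gamma actin, amounted to 1.21 to 4.75 FPM in WT, 203 FPM in KO set 5 and 0.504 to 1.83 FPM in KO sets 6 to 8, and its log2FC changed sign from 4.02 to -1.55 (FDR 0.409 and 0.144). Cnn1, the contractile regulator calponin-1, amounted to 5.96 to 35.5, 343 and 6.99 to 76.4 FPM, with 35.1% of its exonic bases shared with other genes. Set 5 thus set the sign or the size of the group mean for all 3 genes.

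The contractile genes that passed without set 5 were Csrp1, Myl6 and Itga7, and these were also higher in set 5. Csrp1, a cytoskeletal LIM protein of smooth muscle, amounted to 250, 229, 194 and 155 FPM in WT and to 698, 473, 560 and 669 FPM in KO sets 5 to 8 (log2FC 1.54 ± 0.21, edgeR FDR 0.134, and 1.45 ± 0.22, FDR 0.0246, without set 5). Myl6, a myosin light chain of smooth muscle and non-muscle cells, amounted to 581, 423, 507 and 395 FPM in WT and to 798, 1050, 1340 and 1630 FPM in KO (1.34, FDR 0.204, and 1.49, FDR 0.0266). Itga7, the laminin receptor chain of muscle, amounted to 13 to 16.5 FPM in WT and to 63.5, 27.5, 31.9 and 38.1 FPM in KO (1.46, FDR 0.199, and 1.15, FDR 0.0256). The KO values of all 3 genes were above all WT values. The DEG in the other direction, Aoc3, encodes an amine oxidase of smooth muscle and adipocytes and amounted to 18 to 53.5 FPM in WT, 64.5 FPM in KO set 5 and 1.64 to 4.29 FPM in KO sets 6 to 8 (-3.70, FDR 0.0186).

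**Figure D3:**
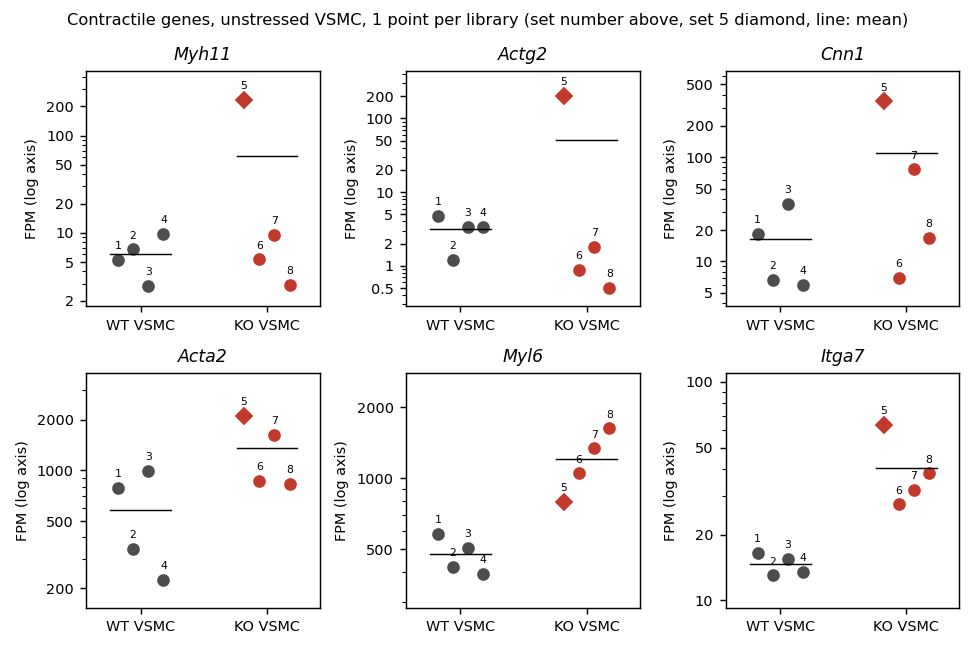
RNA levels in FPM (log axis) of 6 contractile genes in the 4 WT and 4 KO libraries, 1 point per library with its set number, set 5 as a diamond and a line at each group mean. Myh11, Actg2 and Cnn1 reach 231, 203 and 343 FPM in KO set 5 and lie in or near the WT range in sets 6 to 8, while Myl6 and Itga7 are higher in all 4 KO libraries than in WT.

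Among 34 regulators of smooth muscle identity 2 were DEG without set 5. With all libraries 0 were DEG, 5 had an unadjusted edgeR p under 0.05, DESeq2 called 3 and the median log2FC was -0.07. Sox9, a chondrogenic transcription factor that rises in modulated smooth muscle, amounted to 10.4, 27.9, 12.4 and 14.5 FPM in WT and to 49.9, 76.3, 56.5 and 46.5 FPM in KO sets 5 to 8, without overlap (log2FC 1.82, edgeR FDR 0.199, and 1.87, FDR 0.0362, without set 5). Prrx1, a mesenchymal homeobox gene, amounted to 258 to 368 FPM in WT, 254 FPM in KO set 5 and 98.2 to 157 FPM in KO sets 6 to 8 (-1.50, FDR 0.0271). Srf and Klf4, the activator and an opponent of the contractile programme, had log2FC without set 5 of 0.17 and -0.31 and did not pass. Of 16 dedifferentiation markers, Sox9 was higher and Lum lower without set 5, and the median was 0.24. With all libraries 0 of these markers were DEG, 6 had an unadjusted edgeR p under 0.05, DESeq2 called 2 and the median was 0.28. Of 20 YAP-TEAD targets, genes that respond to stretch and stiffness, Wwc1 was a DEG without set 5 (1.98, FDR 0.0245), with a median of -0.13 over the list. With all libraries 0 of these targets were DEG, 8 had an unadjusted edgeR p under 0.05, DESeq2 called 1 and the median was -0.03.

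Matrix genes that passed were mostly lower in KO sets 6 to 8. Of 32 tested collagens 2 were lower DEG without set 5 and 0 were higher, with a median log2FC of -1.05 (-0.51 with set 5, when 0 passed, 6 had an unadjusted edgeR p under 0.05 and DESeq2 called 2). Without set 5, 20 of the 32 had an unadjusted edgeR p under 0.05 and DESeq2 called 15 (25.7% and 12.6% of all genes). Col3a1, the fibrillar collagen of elastic vessels, amounted to 3420, 3110, 923 and 7780 FPM in WT and to 4970, 334, 420 and 570 FPM in KO sets 5 to 8, so set 5 was in the WT range (log2FC without set 5 -3.11, FDR 0.0495). Col18a1, a basement membrane collagen, amounted to 60.3 to 166 FPM in WT, 180 FPM in KO set 5 and 23.9 to 40.7 FPM in KO sets 6 to 8 (-2.02, FDR 0.0350). Col1a1 and Col1a2, the chains of type I collagen, had log2FC of -1.68 and -2.17 without passing (FDR 0.0958 and 0.0506).

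Of 56 matrix glycoproteins and proteoglycans 5 were lower and 1 higher without set 5, with a median of -0.72. With all libraries 0 were DEG, 15 had an unadjusted edgeR p under 0.05, DESeq2 called 5 and the median was -0.40. Without set 5 there were 29 of the 56 at an unadjusted edgeR p under 0.05, and DESeq2 called 21. Nid1, a linker of basement membranes, amounted to 615 to 1150 FPM in WT, 756 FPM in KO set 5 and 245 to 349 FPM in KO sets 6 to 8 (log2FC without set 5 -1.64, FDR 0.0271). Lum, a proteoglycan that binds collagen fibrils, amounted to 133 to 365 FPM in WT and to 114, 6.80, 36.7 and 20.4 FPM in KO, all below WT (-3.59, FDR 0.0338). Lama4, Loxl1 and Mfap4 were also lower, with log2FC of -2.07, -1.29 and -3.92. Smoc1, a BMP-binding matrix protein, went the other way, at 217 to 502, 419 and 799 to 1760 FPM (1.77, FDR 0.0449). Fn1, encoding fibronectin, was at 2420 to 4520 FPM in WT and 1600 to 7130 FPM in KO, and its log2FC of 0.06 without set 5 did not pass (FDR 0.937).

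Among 36 matrix proteases and inhibitors Serpine2 was higher and Adamts6, Mmp19 and Plat were lower without set 5, with a median of -0.74. With all libraries Serpine2 alone passed and the median was -0.54. With set 5 and without it, 7 and 20 of the 36 had an unadjusted edgeR p under 0.05 (12.2% and 25.7% of all genes). DESeq2 called 2 and 19 of them (2.06% and 12.6% of all genes). Plat, the tissue plasminogen activator, a protease that protease nexin-1 can inhibit, amounted to 136 to 212 FPM in WT, 158 FPM in KO set 5 and 44.0 to 81.9 FPM in KO sets 6 to 8 (log2FC without set 5 -1.37, FDR 0.0410). Adamts6, a matrix metalloprotease, amounted to 19.5 to 40.6, 51.2 and 4.51 to 7.20 FPM (-0.60, FDR 0.723, with all libraries and -2.14, FDR 0.0245, without set 5). Of 28 integrin and focal adhesion genes 2 were higher without set 5, Itga3 and Itga7, both laminin receptor chains, and 2 were lower. These were Itga9, a receptor chain for tenascin-C and osteopontin (24.2 to 33.6 FPM in WT, 39.1 FPM in KO set 5, 6.19 to 10.8 FPM in sets 6 to 8; -1.75, FDR 0.0191), and Itga11, a collagen receptor chain (-2.77, FDR 0.0467). With all libraries 0 of the 28 were DEG, 9 had an unadjusted edgeR p under 0.05, DESeq2 called 4 and the median was 0.19, against 0.12 without set 5.

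Markers of adventitial fibroblasts were mostly lower in KO VSMC as well, and Lum, Dcn and Col15a1 among them are also on the matrix lists. The fibroblast markers summed to 8640 to 15400 FPM in WT, 6870 FPM in KO set 5 and 2070 to 3930 FPM in KO sets 6 to 8. In the fit without set 5, 13 of 14 members had a negative log2FC and 5 were lower DEG, Clec3b, Dpep1, Lum, Pdgfra and Serpinf1. Pi16, a marker of adventitial progenitor-like fibroblasts, amounted to 82.9, 159, 35.3 and 465 FPM in WT and to 228, 2.62, 22.5 and 13.9 FPM in KO sets 5 to 8, with no member of the list at 0 in any library. Markers of leukocytes and macrophages summed to 297, 181, 37.4 and 108 FPM in WT and to 174, 53.0, 55.4 and 44.2 FPM in KO. Macrophage markers Adgre1, C1qa and Tyrobp were at 0 in WT set 3, KO set 7 and KO set 8 and at most 0.324 FPM in KO set 6, against 2.00 to 17.4 FPM in the other libraries, KO set 5 included. The sums in WT set 3, KO set 7 and KO set 8 thus came from other members of the list. The parts of these cells in the gene differences were not tested.

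Other marker lists moved too. Mesothelial markers summed to 3.79 to 7.89 FPM in WT, 7.36 FPM in KO set 5 and 29.0 to 96.8 FPM in KO sets 6 to 8. All 6 tested members had a positive log2FC without set 5 and Upk3b passed, while the defining markers Wt1, Muc16, Lrrn4 and Krt8 were at or under 0.442 FPM throughout. Markers of Schwann and neural cells summed to 69.1 to 83.7 FPM in WT, 111 FPM in KO set 5 and 56.6 to 62.6 FPM in KO sets 6 to 8, and Sox10 was at 17.5 FPM in KO set 5, 0 to 10.4 FPM in WT and 0 to 0.594 FPM in sets 6 to 8. Cardiac and skeletal muscle markers summed to 6.99 to 33.0, 21.6 and 71.3 to 185 FPM, almost all of it Tnnt2, with Myh6 and Ckm at 0 in every library. Endothelial markers reached 87.2 FPM in WT set 2 and 5.78 to 29.5 FPM elsewhere, adipocyte markers 47.3 to 172 FPM in WT and 10.4 to 82.4 FPM in KO, pericyte markers 818 to 987 and 522 to 1140 FPM, and epithelial markers at most 0.324 FPM.

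**Figure D4:**
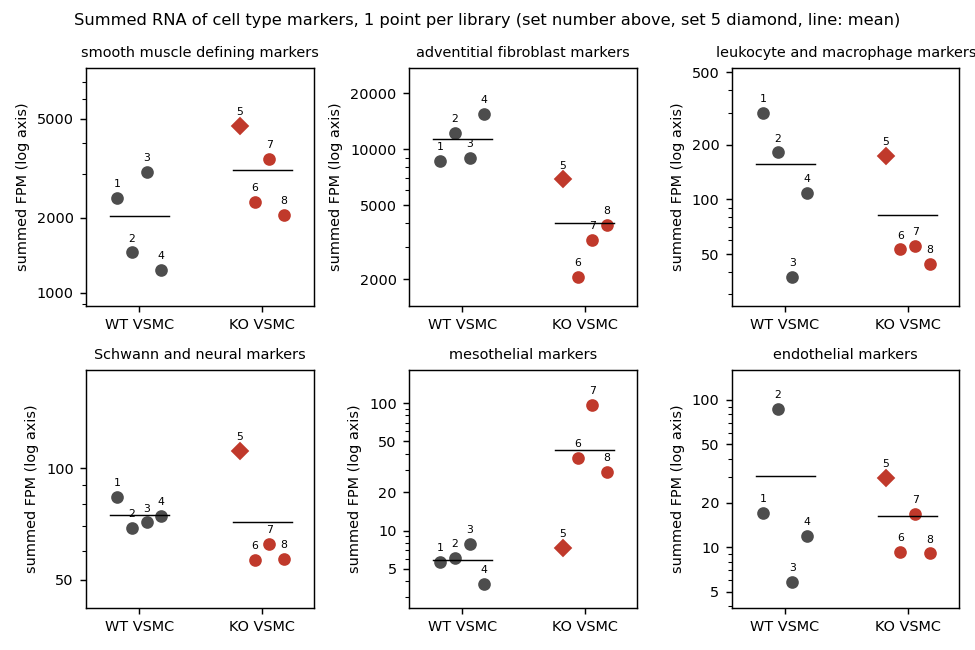
Summed FPM (log axis) of 6 cell type marker lists in the 4 WT and 4 KO libraries, 1 point per library with its set number, set 5 as a diamond and a line at each group mean. The fibroblast sum is lower in all 4 KO libraries than in WT, the mesothelial sum is 29.0 to 96.8 FPM in KO sets 6 to 8 against at most 7.89 FPM elsewhere, and the leukocyte sum is lowest in WT set 3 and KO sets 6 to 8.

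Interferon-stimulated genes, which are switched on by interferons and by sensors of viral RNA, had lower values in KO VSMC with and without set 5. All 31 tested members had a negative log2FC with all 8 libraries, with a median of -1.41, and none passed (0 DEG, 25 with an unadjusted edgeR p under 0.05, 11 called by DESeq2). Without set 5, 8 of 31 were lower DEG, 0 were higher and the median was -1.62. The promoters of a few members are shown because interferon regulatory factors bind a DNA element with paired GAAA repeats. They are the 250 bases before the annotated start in RefSeq on GRCm38.p6, another build than that of the counts, in the direction of the gene, and the capitals mark GAAA, any 2 bases and GAAA found on either strand, with overlapping matches merged.
Ddx60 (chr8:61927837-61928086, plus strand): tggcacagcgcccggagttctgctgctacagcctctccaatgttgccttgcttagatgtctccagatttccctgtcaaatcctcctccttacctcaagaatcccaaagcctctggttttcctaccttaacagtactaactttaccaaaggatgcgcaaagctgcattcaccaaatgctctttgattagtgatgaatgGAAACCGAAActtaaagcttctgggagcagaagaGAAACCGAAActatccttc
Gbp3 (chr3:142559794-142560043, plus strand): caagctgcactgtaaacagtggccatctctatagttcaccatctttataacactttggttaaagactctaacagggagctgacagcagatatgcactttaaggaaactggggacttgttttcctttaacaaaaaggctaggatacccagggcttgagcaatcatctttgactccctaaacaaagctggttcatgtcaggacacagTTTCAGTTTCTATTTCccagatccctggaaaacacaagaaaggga
Ifit1 (chr19:34640639-34640888, plus strand): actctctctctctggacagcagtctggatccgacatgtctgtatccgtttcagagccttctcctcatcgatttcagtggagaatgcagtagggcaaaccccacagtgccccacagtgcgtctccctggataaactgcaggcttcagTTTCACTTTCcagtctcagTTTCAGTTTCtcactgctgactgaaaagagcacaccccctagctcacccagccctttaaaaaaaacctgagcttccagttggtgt

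The letters were found in 13 of 23 members of the list with a promoter in the table (56.5%), in 3 of 5 of those that were DEG without set 5 (60%), and in 936 of 27025 genes with a promoter (3.46%). A match is a stretch of letters and no measured binding site. Ddx60, a helicase cofactor of RNA sensing, amounted to 3.91, 7.30, 2.33 and 4.34 FPM in WT and to 3.20, 0.810, 0.569 and 0.917 FPM in KO sets 5 to 8 (log2FC without set 5 -2.55, edgeR FDR 0.0357). Gbp3, a guanylate-binding GTPase, amounted to 33.0, 46.3, 10.9 and 11.1 FPM in WT and to 8.02, 4.51, 3.25 and 3.39 FPM in KO, all below WT (-2.77, FDR 0.0459). Ifit1, which binds viral RNA, amounted to 124, 125, 60.7 and 15.4 FPM in WT and to 23.5, 5.53, 9.67 and 27.9 FPM in KO, and did not pass (-2.51, FDR 0.104). WT set 4 was the lowest WT library for Ifit1 and overlapped the KO libraries.

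Stat2 amounted to 65.0, 116, 82.9 and 69.5 FPM in WT and to 60.2, 32.5, 27.6 and 34.6 FPM in KO sets 5 to 8, so that all KO values were below WT and set 5 was the nearest (log2FC -1.10, edgeR FDR 0.299, and -1.40, FDR 0.0271, without set 5). Oas2, a synthetase that activates RNase L, amounted to 3.17 to 5.75 FPM in WT, 3.53 FPM in KO set 5 and 0.351 to 0.758 FPM in KO sets 6 to 8 (-3.17, FDR 0.0191). The RNA sensor genes Rigi and Ifih1 had log2FC without set 5 of -1.25 and -1.51, and Oasl2 and Iigp1 of -2.53 and -2.68. Not every member was at a distance from WT, as Ifit2 amounted to 32.1 to 40.4 FPM in WT and 27.7 to 35.8 FPM in KO. In set 5 the 8 DEG were between the WT libraries and KO sets 6 to 8 or inside the WT range.

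**Figure D5:**
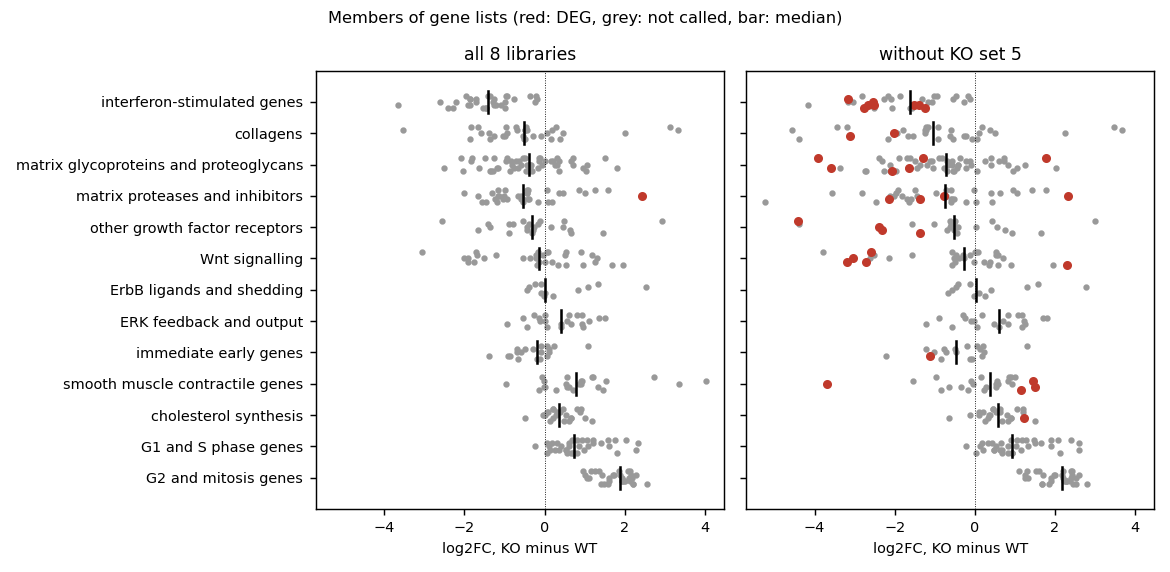
Each point is 1 tested member of a gene list, with log2FC (KO minus WT) on the x axis, DEG in red, other members in grey and a bar at the median of the list, with all 8 libraries (left) and without KO set 5 (right). Interferon-stimulated genes lie below 0 in both panels (medians -1.41 and -1.62), G2 and mitosis genes above 0 in both (1.88 and 2.18) with no DEG, and collagens shift from a median of -0.51 to -1.05.

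Chemokines and inflammatory genes had a median log2FC of -0.66 with all libraries and -0.87 without set 5, with 2 DEG of 33 in the latter. With all libraries 0 were DEG, 5 had an unadjusted edgeR p under 0.05 and DESeq2 called 1. Cx3cl1, encoding the membrane chemokine fractalkine, amounted to 23.7 to 49.0 FPM in WT, 49.1 FPM in KO set 5 and 94.6 to 196 FPM in KO sets 6 to 8 (1.80, FDR 0.0321). Il1r1, the interleukin-1 receptor, amounted to 35.8 to 157, 111 and 13.4 to 18.2 FPM (-2.61, FDR 0.0308). Ccl2, which attracts monocytes, was at 21.1 to 227 FPM in WT and 22.3 to 87.0 FPM in KO and did not pass (-1.11, FDR 0.404).

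Cell cycle genes had positive log2FC, with the highest levels in KO set 6. All 32 G2 and mitosis genes were positive in both fits, with medians of 1.88 and 2.18, and 0 were DEG. At an unadjusted edgeR p under 0.05 there were 12 and 24 (12.2% and 25.7% of all genes), and DESeq2 called 0 and 13 (2.06% and 12.6% of all genes). Mki67, the proliferation marker Ki-67, amounted to 5.49, 5.38, 1.02 and 1.52 FPM in WT and to 5.48, 37.0, 7.80 and 0.871 FPM in KO sets 5 to 8 (log2FC without set 5 2.19, FDR 0.217). Top2a, the topoisomerase of dividing cells, amounted to 3.40 to 16.1 FPM in WT and to 14, 98.4, 29.2 and 3.35 FPM in KO (2.27, FDR 0.163). In both genes KO set 8 was below the lowest WT library, and KO set 6 was the highest. Of 36 G1 and S phase genes 35 were positive with all libraries (median 0.73, and 0.93 without set 5) and 0 were DEG, with 13 and 23 at an unadjusted edgeR p under 0.05 and 0 and 18 called by DESeq2. Among 20 cell cycle inhibitors 0 were DEG, with 4 and 5 at an unadjusted edgeR p under 0.05 and 0 and 3 called by DESeq2, and Cdkn2a, encoding the inhibitors INK4A and ARF, amounted to 49.7 to 123 FPM in WT and 90.8 to 190 FPM in KO (0.96, FDR 0.107).

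Metabolic lists held single DEG without set 5. Of 24 cholesterol synthesis genes Pmvk, phosphomevalonate kinase, passed, at 7.09 to 9.06 FPM in WT, 9.57 FPM in KO set 5 and 18.2 to 21.2 FPM in KO sets 6 to 8 (1.22, FDR 0.0232), with a median of 0.58 over the list. Of 37 genes of lipid handling Abca1, the cholesterol exporter, was lower, at 203 to 407, 274 and 55.1 to 84.7 FPM (-1.98, FDR 0.0245), with a median of -0.08. Of 30 genes of glucose transport and glycolysis Ldhb, the heart-type lactate dehydrogenase chain, was higher, at 53.9 to 77.1, 69.2 and 125 to 146 FPM (1.04, FDR 0.0277), with a median of 0.17. Set 5 was within or next to the WT range for all 3. With all libraries 0 genes of these lists were DEG. The cholesterol, lipid and glucose lists then had 1, 5 and 8 genes at an unadjusted edgeR p under 0.05, and DESeq2 called 1 in each. Of 18 aryl hydrocarbon receptor and NRF2 targets 0 were DEG, with 3 and 5 at an unadjusted edgeR p under 0.05, 0 and 2 called by DESeq2 and medians of -0.02 and -0.05.

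In most developmental signalling lists more members were lower than higher. In the Wnt list 4 of 33 genes were lower and 1 was higher without set 5, with a median of -0.27. With all libraries 0 were DEG, 9 had an unadjusted edgeR p under 0.05, DESeq2 called 3 and the median was -0.15. Sfrp1, a secreted Wnt antagonist, amounted to 2550, 757, 1370 and 976 FPM in WT and to 1020, 139, 308 and 194 FPM in KO sets 5 to 8, with set 5 in the WT range (-2.73, FDR 0.0340). Fzd1 and Fzd4 were lower (-2.59 and -3.05), as was Wnt2b (-3.18), while Wnt4 was higher (2.29, FDR 0.0447). Of 37 TGF-beta and BMP genes Id1, a direct BMP target, was higher, at 27.1 to 71.3 FPM in WT, 47.3 FPM in KO set 5 and 142 to 245 FPM in KO sets 6 to 8 (1.88, FDR 0.0304). Acvrl1, the BMP9 receptor ALK1, was lower, at 175 to 226 FPM in WT and 143, 65.7, 87.4 and 91.7 FPM in KO, with no overlap (-1.34, FDR 0.0192), and so was Bmper (-2.66). Of the 37 TGF-beta and BMP genes 0 were DEG with all libraries, 7 had an unadjusted edgeR p under 0.05, DESeq2 called 3 and the median was 0.03.

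In the IGF system 3 of 16 genes passed without set 5, with a median of -0.95. With all libraries 0 were DEG, 5 had an unadjusted edgeR p under 0.05, DESeq2 called 1 and the median was -0.65. Igf1 amounted to 7.66 to 13.1 FPM in WT, 14.6 FPM in KO set 5 and 18.7 to 34.7 FPM in KO sets 6 to 8 (1.39, FDR 0.0447). Igfbp4, which binds and restrains IGF, was lower (-2.75, FDR 0.0486), and so was Irs2, the adaptor of the insulin and IGF1 receptors (-0.96, FDR 0.0440). Of 38 guidance genes Sema3a, a repellent semaphorin, was higher, at 1.78 to 6.53 FPM in WT and 14.4, 27.5, 18.7 and 31.1 FPM in KO (2.56, FDR 0.0272), and Epha3, Ephb2 and Sema6a were lower, with a median of -0.52. With all libraries 0 guidance genes were DEG, 8 had an unadjusted edgeR p under 0.05, DESeq2 called 3 and the median was -0.28. Grb10 was the DEG among 18 imprinted growth genes. HOX genes record the position of cells along the body axis. In either fit 0 of 11 anterior and 0 of 15 middle and posterior HOX genes were DEG. With set 5 and without it, each group had 2 and 4 at an unadjusted edgeR p under 0.05. DESeq2 called 0 and 1 anterior genes and 0 and 4 middle and posterior ones. The medians were -0.07 and -0.29 in the anterior group and -0.67 and -0.85 in the other. The log2FC was negative for 6 and 8 of the 11 anterior genes and for 14 and 13 of the 15 others.

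The same animals were sequenced under stressors, so those comparisons are no independent evidence. With high glucose and free fatty acids (HG_FFA) 2 genes were DEG with set 5 (0.0123%), Serpine2 and Cbr2, and 175 without it (1.05%). With angiotensin II and noradrenaline (AII_NA, named epinephrine in a label) there were 0 DEG with set 5 (0%; 1916 at an unadjusted edgeR p under 0.05, 381 called by DESeq2) and 279 without it (1.72%). With all agents together (ALL) set 5 had no library analysed here, and 470 genes were DEG (2.92%). Without set 5, Serpine2 had a log2FC of 2.34 under HG_FFA, 2.18 under AII_NA and 2.44 under ALL. With set 5 it was 2.5 under HG_FFA and 2.28 under AII_NA. Serpine2 was at 33.1 to 90.3 FPM over all stressed WT libraries and 210 to 407 FPM over all stressed KO libraries, without overlap. Its edgeR FDR with set 5 was 0.0284 under HG_FFA and 0.0510 under AII_NA. In the same order without set 5, the log2FC of Aqp1 was 4.56, 3.79 and 4.29, and that of Agtr1a was -3.84, -4.54 and -4.43. With set 5, under HG_FFA and AII_NA, they were 4.70 and 4.07 for Aqp1 and -3.19 and -3.81 for Agtr1a. Whether the genotype difference changed between each stressor and Control was tested with limma and the set as a block. It found 0 genes at an FDR under 0.05 in each of 6 contrasts, with and without set 5. At an unadjusted p under 0.05 there were 532 to 3774 genes. The lowest count was for HG_FFA with set 5, among 18339 genes tested. The highest was for AII_NA without set 5, among 18164, which is more than a share of 0.05. The 0 genes at an FDR under 0.05 thus do not show that the genotype difference was unchanged under stressors. DESeq2 was not run here.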

How the data were processed

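RNA was measured by poly(A)-selected paired-end RNA-seq. The authors aligned reads to mm39 with HISAT2 2.1.0 and deposited whole-number fragment counts per gene from featureCounts, multi-mapped reads included, with the Ensembl annotation; the strand setting is not given in the sources used here. The members and gene lists were chosen with earlier results of these data known. Counts of the 8 libraries were filtered with filterByExpr, normalised by TMM and tested with edgeR 4.0.16 (quasi-likelihood) and with DESeq2 1.42.0 in R 4.3.3, with Benjamini-Hochberg FDR over all genes tested. SE was taken from the edgeR statistic. Multi-mapped reads and exons shared with other genes can move counts between genes. Named genes were Egfr, up to 15 higher and 15 lower DEG without overlap of 4 against 4, and DEG and the 4 largest changes of each list; a few of these genes are not reported here. Limma 3.58.1 served the fits over conditions, and figures were drawn with matplotlib 3.10.9. The scripts were tested on simulated data. Replicate libraries differed by more than sampling noise, so none was merged. Alternatives were other tools, scalings and filters, and each library left out.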

Additional observations from a re-analysis of the deposited data

Results flagged for a closer look

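In groups of 4 libraries, a value was singled out when its gap to the nearest other library took up more of the group's whole range than Dixon's 95% critical value for 4 samples. Of 274 groups looked at (each named gene, each marker sum and the depth, in WT and KO), 51 held such a value, and 41 of the 51 were KO set 5. Chance singles out about 1 in 20 groups that were not chosen by their values. That rate does not apply here, since 92 of the 126 named genes were DEG without set 5, a choice that favours KO sets 6 to 8 lying close together and away from WT, and the genes are not independent of each other.

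KO set 5 lay above KO sets 6 to 8 in most of these genes. The targeted gene Egfr was at 38.2 FPM and Erbb3 at 7.46 FPM. Among contractile genes, Myh11 was at 231, Actg2 at 203, Tpm2 at 667 and Aoc3 at 64.5 FPM. Among receptors, Pdgfra was at 403, Epha3 at 72.7, Fzd1 at 399, Fzd4 at 82.2, Ednra at 31.2, Il1r1 at 111 and Itga9 at 39.1 FPM. Among matrix genes and proteases, Col3a1 was at 4970, Col1a2 at 6550, Col18a1 at 180, Mfap4 at 141, Adam12 at 39.1, Adamts6 at 51.2 and Naalad2 at 61.2 FPM.

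Signalling and transcription genes followed the same order, with Grb10 at 389, Bmper at 47.1, Igfbp4 at 1130, Wnt2b at 8.22, Irak3 at 41.3, Ebf3 at 10.6, Kcne4 at 164 and Abca1 at 274 FPM in KO set 5. Interferon-related genes there were Ddx60 at 3.20, Oas2 at 3.53 and Slfn5 at 87.8 FPM, and AI606473 was at 2.91 FPM. Nrg1, at 9.97 FPM, was the gene in which set 5 lay below the other KO libraries.

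Marker genes of other cell types also stood apart in KO set 5. The fibroblast markers Clec3b and Pi16 were at 117 and 228 FPM, the macrophage markers Adgre1, C1qa and Tyrobp at 6.5, 8.78 and 2.18 FPM, and the Schwann cell factor Sox10 at 17.5 FPM. The leukocyte and macrophage markers summed to 174 FPM and the Schwann and neural markers to 111 FPM. Their part in the other set 5 values was not tested.

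Single values of other libraries were singled out as well. In WT set 2 these were Tgfa at 11.2 FPM, Prrx1 at 258 FPM and the endothelial marker sum at 87.2 FPM. In WT set 3 Adam12 was at 29.4, Col18a1 at 60.3 and Zfp783 at 7.19 FPM. In WT set 4 Igfbp4 was at 2040 and Cnksr1 at 0.138 FPM, in WT set 1 Slc25a34 was at 0.0863 FPM, and in KO set 6 Rgs5 was at 436 FPM.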

How the results depend on the processing

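With all 8 libraries the count of 1 DEG stayed at 1 with DESeq2 size factors, without the FPM minimum, without the log2FC threshold, at a log2FC of at least 1, with all gene types and with counts summed per set. It was 2 with limma-voom, 10 without the filter on low counts and 273 (168 higher, 105 lower) with the FDR of DESeq2 alone beside the other criteria, and leaving out 1 library gave 0 to 348. Egfr had a log2FC of -5.16 with DESeq2 (FDR 0.00911) and -8.64 without KO set 5. Its mean difference in log2(FPM + 0.1) was -8.58 without KO set 5. Without KO set 5 the 348 DEG became 1502 (674 higher, 828 lower) with DESeq2 alone and 939 (353 higher, 586 lower) without the filter, and 17 to 499 when 1 further library was left out. The fits without a further library were chosen after seeing the data. Within HG_FFA the count went from 2 to 175 and within AII_NA from 0 to 279 without KO set 5. The causes were not tested.

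Genes whose direction changed with all 8 libraries were Actg2 and Myh11, at -1.55 and -0.05 without KO set 5, Erbb3, at -0.32 with limma-voom and -0.18 with counts summed per set, and at -1.78 without KO set 5 and -0.33 without WT set 3, Erbb2, at 0.01 to 0.04 without WT set 2, WT set 4, KO set 6 or KO set 7, and Cald1, at 0.12 without WT set 3 and 0.00 without KO set 8. Leaving out 1 of the 8 libraries gave a log2FC of -1.55 to 4.44 for Actg2, -0.05 to 3.74 for Myh11, -1.78 to 0.44 for Erbb3, -0.17 to 0.04 for Erbb2, -0.29 to 0.12 for Cald1 and -8.64 to -4.74 for Egfr. None of the genes whose direction changed passed the test in any of those fits. Without KO set 5, direction was followed only for the 92 named genes that were DEG there. Their KO sets 6 to 8 did not overlap WT, so a change of sign could hardly occur, and none did. Genes not called there were not followed.

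No paired analysis was possible because WT sets 1 to 4 and KO sets 5 to 8 share no number. Limma was also run with the set as a replicate block over the Control and stressed libraries of the same animals. It called 594 genes (233 higher, 361 lower) with set 5 and 1731 (800 higher, 931 lower) without it. These calls took the limma FDR in place of those of edgeR and DESeq2. They rest on repeated libraries of the same animals and on 1 correlation within sets for all genes. With set 5 the log2FC was -7.42 for Egfr (FDR 1.7e-08) and -0.32 for Erbb3. With the counts of the same libraries summed per set there were 1 and 296 DEG, and the FDR of Egfr with set 5 was 0.219. Without the FPM minimum the 348 DEG became 382. With 3 or 4 animals per genotype, differences within the spread of single sets were not detectable here.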

Other observations

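All libraries came from male mice, and the 4 Y-linked genes on the list were detected in all of them. In WT set 3 Ddx3y was at 11.6 FPM and Eif2s3y at 4.86 FPM, against at least 52 and 29 FPM in the other 7 libraries, while Kdm5d and Uty were at 28.1 and 9.83 FPM there. Of the 4 genes 0 were DEG in either fit, 0 had an unadjusted edgeR p under 0.05 and DESeq2 called 0.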
